A study of Homo sapiens with 8 samples.

Results

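The genes described here are 4 transcription factors of the thyroid follicular lineage, PAX8, FOXE1, HHEX and NKX2-1, and 5 genes of thyroid hormone synthesis and its control, TG, TSHR, SLC5A5, DUOX1 and DUOX2. They were taken by symbol from the gene rows of the count files, where all 9 were present among 56832 gene rows. RNA was sequenced from Nthy-ORI, an immortalised human thyroid epithelial cell line used as a normal thyroid model, and the series concerns transcription through thyroid hormone receptor beta and the chromatin remodeller SWI/SNF. All cells were first deprived of hormone for 24 h in phenol-red-free medium with charcoal-stripped serum. Triiodothyronine (T3), the form of thyroid hormone that binds the nuclear receptors, was then added at 10 nM, and control cells received NaOH as vehicle. Libraries were made from ribosomal RNA-depleted total RNA, with 2 libraries in each of 4 groups: T3 at 24 h, vehicle at 24 h, T3 at 6 h and vehicle at 6 h. A single cell line was used. The labels do not say whether the 2 libraries of a group are from different cultures, and the p-values therefore reflect the spread between libraries alone.

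In the developing thyroid, PAX8, NKX2-1, FOXE1 and HHEX are present together in follicular cell precursors, and their combination marks that lineage. In the mature follicular cell, PAX8 and NKX2-1 bind the promoters or enhancers of the synthesis genes, and TSH acting on its receptor sustains their transcription. Hormone is made on thyroglobulin, after iodide has been taken up by the sodium/iodide symporter and oxidised with hydrogen peroxide from the dual oxidases.

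The promoter windows of 4 genes are shown, those of the 3 transcription factors that were measurable and that of TSHR, whose window holds a thyroid hormone receptor half-site. Each runs from 250 bases before to 50 bases after the RefSeq start site on GRCh38.p14, 5′ to 3′ on the strand of the gene. Capitals mark matches to the motifs searched. The PAX8 window lies at chr2:113278872-113279171 on the minus strand, that of FOXE1 at chr9:97852976-97853275, that of HHEX at chr10:92689705-92690004 and that of TSHR at chr14:80955371-80955670, the last 3 on the plus strand.
PAX8: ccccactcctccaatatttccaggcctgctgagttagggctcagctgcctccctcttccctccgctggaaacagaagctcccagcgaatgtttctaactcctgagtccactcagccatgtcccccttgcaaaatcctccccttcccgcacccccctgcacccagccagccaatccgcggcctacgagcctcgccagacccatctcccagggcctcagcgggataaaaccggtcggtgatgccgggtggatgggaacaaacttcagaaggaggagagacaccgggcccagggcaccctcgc
FOXE1: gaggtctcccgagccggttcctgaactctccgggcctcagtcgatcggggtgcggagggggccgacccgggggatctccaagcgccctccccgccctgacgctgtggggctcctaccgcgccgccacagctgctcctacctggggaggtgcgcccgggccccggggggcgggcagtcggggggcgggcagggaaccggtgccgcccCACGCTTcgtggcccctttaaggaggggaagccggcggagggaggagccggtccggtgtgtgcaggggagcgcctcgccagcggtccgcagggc
HHEX: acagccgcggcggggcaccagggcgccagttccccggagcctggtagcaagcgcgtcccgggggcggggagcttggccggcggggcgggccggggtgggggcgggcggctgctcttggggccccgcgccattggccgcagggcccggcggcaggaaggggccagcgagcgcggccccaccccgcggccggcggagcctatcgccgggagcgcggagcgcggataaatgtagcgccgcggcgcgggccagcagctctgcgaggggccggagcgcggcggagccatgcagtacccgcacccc
TSHR: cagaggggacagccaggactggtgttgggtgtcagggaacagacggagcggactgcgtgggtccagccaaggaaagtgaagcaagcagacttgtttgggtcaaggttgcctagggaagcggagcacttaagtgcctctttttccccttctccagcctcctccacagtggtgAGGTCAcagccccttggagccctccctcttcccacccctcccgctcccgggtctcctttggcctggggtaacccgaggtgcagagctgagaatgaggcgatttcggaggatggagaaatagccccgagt

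The motifs searched on both strands were the thyroid hormone receptor half-site AGGTCA, its direct repeat with 4 bases between the copies (which contains the half-site), the NKX2-1 cores CTCAAG and CACTTG, and the PAX cores GTCATGC and AAGCGTG. The windows of PAX8 and HHEX held none of them. The FOXE1 window held the reverse complement of AAGCGTG, with its first base 44 bases before the start site, a motif found in 1.66% of 35116 RefSeq windows of 300 bases. The TSHR window held AGGTCA, with its first base 79 bases before the start site, a motif found in 13.8% of all windows. Windows were matched for 8 of the 9 genes, and the direct repeat occurred in none of them and in 7 windows in all. Among windows not shown, the NKX2-1 window at chr14:36519507-36519806 held CTCAAG, with its first base at position 24 from the start site. It also held the reverse complement of CACTTG, 147 bases before the start site. These motifs were found in 12.4% and 11.5% of all windows. Another NKX2-1 window, at chr14:36520183-36520482, held no match, nor did the windows of SLC5A5, DUOX1 and DUOX2. The HHEX and FOXE1 windows were GC-rich, at 80.3% and 76.0% G and C against a median of 58.7% over all windows, while those of PAX8 and TSHR were near that median, at 62.0% and 60.0%. A match is a description of these letters only.

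The libraries held 6057464 and 8201606 gene counts in T3 at 24 h, 3957592 and 6743039 in vehicle at 24 h, 3043258 and 5450752 in T3 at 6 h, and 3428165 and 2517983 in vehicle at 6 h. The libraries of the 2 time points stood apart. Of 14611 tested genes, 70.4% differed between 24 h and 6 h in T3-treated cells and 64.5% in vehicle-treated cells. CPS1, a urea cycle enzyme typical of liver, had 12.6 and 9.95 CPM (counts scaled to library size with the TMM method) in T3 at 24 h and 3558 and 3442 CPM in T3 at 6 h, with a like gap in vehicle. Gene counts were 19.5% to 24.4% of the table in the 24 h libraries and 12.9% to 17.1% in the 6 h libraries, and alignments that were not unique made up 47.6% to 57.1% of the table at 24 h and 61.2% to 67.4% at 6 h. The part of this in the time differences was not tested. Time and anything else that differed between the 2 sets of libraries cannot be told apart. The 24 h libraries also went against their labels at T3-induced genes. KLF9, a direct T3 target, had 2.79 and 3.35 CPM in the libraries labelled T3 at 24 h, against 20.8 and 31.4 CPM in those labelled vehicle at 24 h. At 6 h it had 13.4 and 14.1 CPM in T3, against 0.904 and 0.818 CPM in vehicle. Every 24 h direction below is therefore that of the labels.

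Only the transcription factors PAX8, FOXE1 and HHEX had enough counts to be tested, and they gave nearly all the counts of the 9 genes. The other 6 genes had 73 counts together over the 8 libraries, with 13 as the highest value in any library. A gene with 3 counts in a library lay between 0.347 and 1.23 CPM, depending on depth. Against this floor, PAX8 reached more than 100 CPM in the 24 h libraries and FOXE1 and HHEX lay between 6.84 and 24.96 CPM throughout.

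**Figure D1:**
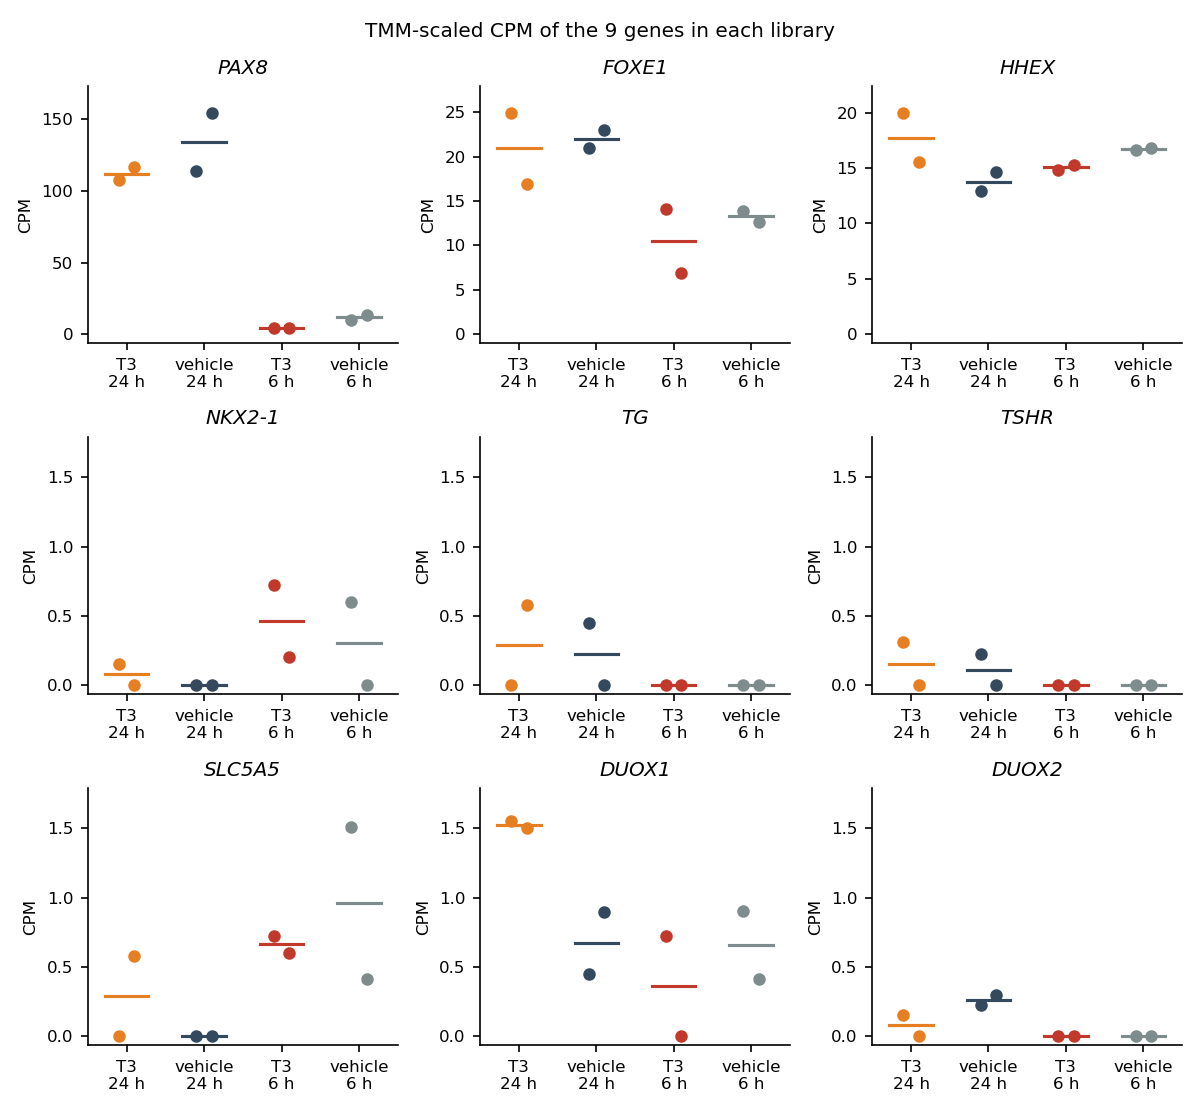
TMM-scaled CPM of each of the 9 genes by group, with points for the 2 libraries of a group and a bar at their mean; the vertical scale differs between genes. PAX8 lies at 107.7 CPM or more in the 4 libraries of 24 h and at 13.5 CPM or less in the 4 of 6 h, while the 6 genes in the lower panels stay below 1.6 CPM in every library.

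PAX8, the paired-box factor needed to form follicular cells, lies at 113215997 to 113278950 on the minus strand of chromosome 2 (GRCh38). Its counts were 695 and 1008 in T3 at 24 h, 504 and 1035 in vehicle at 24 h, 12 and 20 in T3 at 6 h, and 33 and 33 in vehicle at 6 h. Scaled for depth, these are 107.7 and 116.6 CPM in T3 at 24 h, 113.9 and 154.7 CPM in vehicle at 24 h, 4.34 and 4.02 CPM in T3 at 6 h, and 9.95 and 13.5 CPM in vehicle at 6 h. Both 24 h groups were far above both 6 h groups, and at 6 h both T3 libraries were below both vehicle libraries, while at 24 h the lower vehicle library lay between the 2 T3 libraries.

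PAX8 fell in T3-treated cells at 6 h, averaging 4.18 ± 0.226 CPM in T3 and 11.7 ± 2.51 CPM in vehicle (SD, n = 2 each), a log2 fold change of -1.47 (SE 0.32, 95% interval -2.15 to -0.79, edgeR adjusted p = 0.0120). It was the 1 gene called of the 3 tested and the 9 in all, where 7.64% of all tested genes were called, 553 (3.78%) higher and 564 (3.86%) lower. With GC content and gene length removed, the split over all genes was 156 higher and 303 lower. Over all genes the count of 1117 was 131 and 612 without the first and the second vehicle library of 6 h, 134 and 154 without the first and the second T3 library of 6 h, and 1681 without the first vehicle library of 24 h. The call was lost when GC content and length were removed, at -1.26 with an edgeR adjusted p of 0.0530. It was also lost when any 1 of the 4 libraries of 6 h was left out, with log2 values of -1.69 to -1.22 and edgeR adjusted p of 0.0607 to 0.150.

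At 24 h no member was called between T3 and vehicle by edgeR or DESeq2, and none had an unadjusted p under 0.05, where edgeR called 13.3% of all tested genes, 5.58% higher and 7.75% lower. Over all genes the count of 1948 was 1128 and 1180 without the first and the second T3 library of 6 h. PAX8 averaged 112 ± 6.25 CPM in T3 and 134 ± 28.9 CPM in vehicle (SD, n = 2 each), a log2 fold change of -0.26 with a 95% interval of -0.59 to 0.06 (edgeR adjusted p = 0.278). It was -0.50 without the first vehicle library of 24 h (edgeR adjusted p = 0.0433) and -0.028 without the second (edgeR adjusted p = 0.959). With GC content and length removed the sign turned, at 0.08. The difference between the T3 response at 24 h and that at 6 h was 1.21 for PAX8 on the log2 scale (SE 0.36, 95% interval 0.45 to 1.96), with an edgeR adjusted p of 0.0951. It passed without the second vehicle library of 24 h, at 1.43 (edgeR adjusted p = 0.0325). In that comparison 1.84% of all tested genes were called, 124 (0.849%) higher and 145 (0.992%) lower, and 0 members were, although PAX8 had an unadjusted p under 0.05 and DESeq2 called 0 members. With GC content and length removed the split over all genes was 180 higher and 124 lower. The count of 269 was 71 and 49 without the first and the second T3 library of 6 h, 123 and 81 without the first and the second vehicle library of 6 h, and 750 without the first vehicle library of 24 h.

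Between the time points PAX8 was the most changed of the 3 tested genes. It was 26.9-fold higher at 24 h than at 6 h in T3-treated cells (log2 4.75, SE 0.24, edgeR adjusted p = 1.92e-11) and 11.7-fold higher at 24 h in vehicle-treated cells (log2 3.54, SE 0.21, edgeR adjusted p = 2.67e-10). In each of these comparisons 2 members, PAX8 and FOXE1, were called higher, where 35.1% of all tested genes were called higher and 35.2% lower in T3, and 31.9% higher and 32.6% lower in vehicle. Both comparisons share libraries with those of T3 against vehicle. The 6 h level of PAX8 was 3.39% in T3 and 9.51% in vehicle of its mean over the 4 libraries of 24 h. In a bulk library, fewer cells of a type and less RNA per cell cannot be told apart.

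Genes picked as much higher in the 24 h libraries mostly had negative T3 responses at 6 h, where they are low by that choice. For the 513 genes that were at least 8-fold higher at 24 h than at 6 h, a set chosen after their values were seen, the median log2 fold change of T3 over vehicle at 6 h was -1.28 (quartiles -2.13 and -0.35), against -0.02 over all tested genes. Of them, 410 (79.9%) had a negative value, 95 were called lower and 0 higher by edgeR, against 51.6% negative over all tested genes. Of all tested genes, 564 (3.86%) were called lower and 553 (3.78%) higher. The set was defined with the same 6 h libraries that give these responses, and it includes PAX8. A gene could also pass the low-count filter through the 24 h groups alone. The 6 h responses of such genes rest on few counts, so these shares and calls cannot show a common response of the set. The 652 genes at least 8-fold lower at 24 h had a median of -0.02. PAX8, at -1.47, lay near the middle of the set that was higher at 24 h, and the part of this shift in its 6 h call was not tested.

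**Figure D2:**
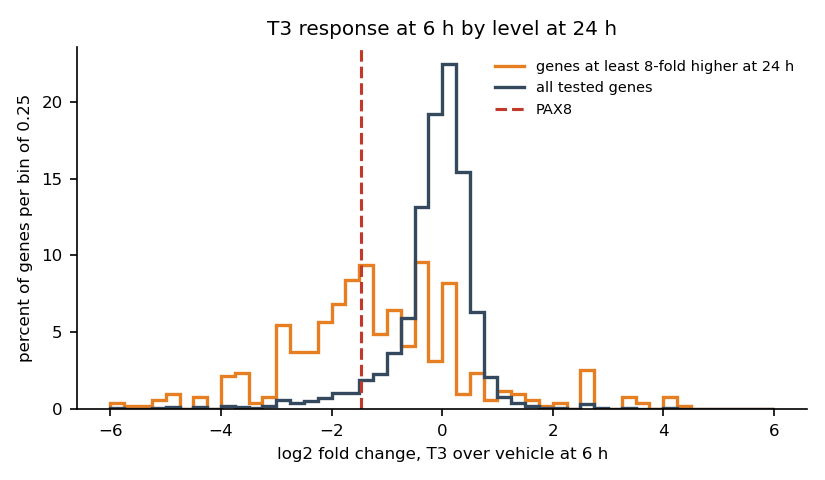
Distribution of the log2 fold change of T3 over vehicle at 6 h, as percent of genes per bin of 0.25, for genes at least 8-fold higher at 24 h (orange) and all tested genes (dark blue), with PAX8 as a dashed line. Values past 6 or below -6 were put in the end bins. The 513 genes in orange have a median of -1.28, near the -1.47 of PAX8, and all tested genes a median of -0.02. The genes in orange are low at 6 h by the choice of the set, which used the same 6 h libraries.

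FOXE1, the forkhead factor of thyroid precursor migration and of the TG promoter, lies at 97853254 to 97856715 on chromosome 9. Its counts were 161 and 146 in T3 at 24 h, 93 and 154 in vehicle at 24 h, 39 and 34 in T3 at 6 h, and 46 and 31 in vehicle at 6 h. The depth-scaled values were 24.96 and 16.9 CPM in T3 at 24 h, 21.0 and 23.0 CPM in vehicle at 24 h, 14.1 and 6.84 CPM in T3 at 6 h, and 13.9 and 12.7 CPM in vehicle at 6 h. All 4 libraries of 24 h lay above all 4 of 6 h, and within each time point T3 overlapped vehicle.

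FOXE1 rose 2.10-fold at 24 h over 6 h in T3-treated cells (log2 1.07, SE 0.31, edgeR adjusted p = 0.00528) and 1.66-fold in vehicle-treated cells (log2 0.73, SE 0.31, edgeR adjusted p = 0.0479). The vehicle call was lost with DESeq2, at an adjusted p of 0.151, and without any 1 of the 4 vehicle libraries, at log2 values of 0.67 to 0.81 and edgeR adjusted p of 0.0639 to 0.175. The T3 call was lost without the second T3 library of 6 h, at 0.55 (edgeR adjusted p = 0.197). With GC content and length removed the values were 2.24 in T3 and 1.65 in vehicle. Between T3 and vehicle FOXE1 did not pass the test, with log2 values of -0.43 at 6 h (95% interval -1.16 to 0.31, edgeR adjusted p = 0.504) and -0.09 at 24 h (95% interval -0.66 to 0.48, edgeR adjusted p = 0.877). The difference between its T3 responses at 24 h and 6 h was 0.34 (edgeR adjusted p = 0.771).

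HHEX, a homeobox factor that maintains the early thyroid primordium, lies at 92689951 to 92695646 on chromosome 10. Its counts were 129 and 134 in T3 at 24 h, 57 and 98 in vehicle at 24 h, 41 and 76 in T3 at 6 h, and 55 and 41 in vehicle at 6 h. The depth-scaled values were 19.998 and 15.5 CPM in T3 at 24 h, 12.9 and 14.6 CPM in vehicle at 24 h, 14.8 and 15.3 CPM in T3 at 6 h, and 16.6 and 16.8 CPM in vehicle at 6 h. These 8 values span less than a 2-fold range.

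HHEX passed no test. Its log2 fold change of T3 over vehicle was 0.35 at 24 h (95% interval -0.14 to 0.85, edgeR adjusted p = 0.346) and -0.14 at 6 h (95% interval -0.70 to 0.41, edgeR adjusted p = 0.796). The change at 24 h over 6 h was 0.23 in T3 (95% interval -0.29 to 0.74, edgeR adjusted p = 0.411) and -0.27 in vehicle (95% interval -0.81 to 0.27, edgeR adjusted p = 0.372). These 4 intervals reach from -0.81 to 0.85. The difference of T3 responses at 24 h and 6 h was 0.50 (95% interval -0.25 to 1.24, edgeR adjusted p = 0.539).

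**Figure D3:**
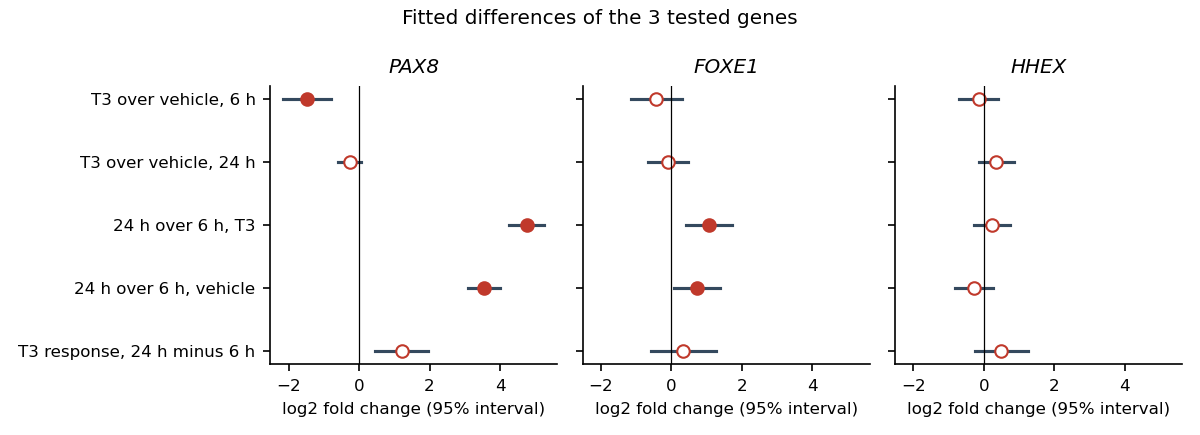
Fitted log2 fold changes of PAX8, FOXE1 and HHEX with 95% intervals for 5 comparisons; filled points passed the edgeR adjusted p threshold of 0.05. PAX8 at 24 h over 6 h stands at 4.75 in T3 and 3.54 in vehicle, whereas every HHEX interval includes 0.

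Per kilobase of annotated exon, the order of the 3 factors differed between the time points. PAX8 was highest at 24 h, at 15.2 ± 0.845 RPKM in T3 and 18.1 ± 3.90 RPKM in vehicle, and lowest at 6 h, at 0.565 ± 0.0306 RPKM in T3 and 1.58 ± 0.340 RPKM in vehicle (SD, n = 2 each). HHEX was highest at 6 h, at 5.97 ± 0.126 RPKM in T3 and 6.60 ± 0.0556 RPKM in vehicle. FOXE1 lay between them there, at 3.03 ± 1.49 RPKM in T3 and 3.83 ± 0.241 RPKM in vehicle. At 24 h FOXE1 had 6.04 ± 1.65 RPKM and HHEX 7.03 ± 1.26 RPKM in T3, a difference within their spread. In vehicle at 24 h FOXE1 had 6.36 ± 0.410 RPKM and HHEX 5.45 ± 0.496 RPKM, a difference that was not tested. None of the other 6 genes averaged more than 0.262 RPKM in any group.

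NKX2-1, the homeobox factor that acts with PAX8 on the TG promoter, had 1 and 0 counts in T3 at 24 h, 0 and 0 in vehicle at 24 h, 2 and 1 in T3 at 6 h, and 2 and 0 in vehicle at 6 h. It lies at 36516392 to 36521149 on the minus strand of chromosome 14. Its antisense neighbour NKX2-1-AS1 and the adjacent lung gene SFTA3 were at 0 in all 8 libraries. The NKX2-1 counts were at or below the floor of 3 in every library.

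Of the synthesis genes, TG, TSHR, SLC5A5 and DUOX2 were at or near this floor, and DUOX1 lay above it in T3 at 24 h. TG, which encodes thyroglobulin and lies at 132866958 to 133134903 on chromosome 8, had 0 and 5 counts in T3 at 24 h, 2 and 0 in vehicle at 24 h, and 0 in all 4 libraries of 6 h. A count of 0 over the 2 libraries of a group allows up to 0.388 CPM in T3 at 6 h and 0.521 CPM in vehicle at 6 h, for counting error only. TSHR, the TSH receptor on chromosome 14 at 80954989 to 81146302, had 2 and 0 counts in T3 at 24 h, 1 and 0 in vehicle at 24 h, and 0 in all 4 libraries of 6 h. SLC5A5, which encodes the sodium/iodide symporter and lies at 17871973 to 17895174 on chromosome 19, had 0 and 5 counts in T3 at 24 h, 0 and 0 in vehicle at 24 h, 2 and 3 in T3 at 6 h, and 5 and 1 in vehicle at 6 h. No library thus held more than 5 counts of TG, TSHR or SLC5A5.

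DUOX1 and DUOX2 encode the dual oxidases that make hydrogen peroxide at the apical membrane, and both lie on chromosome 15, DUOX1 at 45129933 to 45165576 on the plus strand and DUOX2 at 45092650 to 45114344 on the minus strand. DUOX1 had 10 and 13 counts in T3 at 24 h, 2 and 6 in vehicle at 24 h, 2 and 0 in T3 at 6 h, and 3 and 1 in vehicle at 6 h. Pooled over a group it reached 1.52 CPM in T3 at 24 h (exact 95% interval 0.966 to 2.29) and 0.720 CPM in vehicle at 24 h (0.311 to 1.42), and intervals of this kind cover counting error only. At 6 h the pooled values were 0.259 CPM in T3 (0.0313 to 0.934) and 0.694 CPM in vehicle (0.189 to 1.78). DUOX1 did not pass the low-count filter, the 24 h intervals overlap, and no difference was tested. DUOX2 had 1 and 0 counts in T3 at 24 h, 1 and 2 in vehicle at 24 h, and 0 in all 4 libraries of 6 h.

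Overlapping genes limit some of these values, because the strand setting of the counting is not given in the sources used here. PAX8-AS1, antisense to PAX8 with 685 bases of shared exon, had 12 and 12 counts in T3 at 24 h, 12 and 31 in vehicle at 24 h, 1 and 1 in T3 at 6 h, and 8 and 2 in vehicle at 6 h. Its 6 h log2 fold change of -2.59 did not pass (edgeR adjusted p = 0.151), and it rose at 24 h over 6 h in T3 by 2.51 on the log2 scale (edgeR adjusted p = 0.0302). In vehicle the value was 1.13 and did not pass (edgeR adjusted p = 0.162). Without strand, reads within the 685 shared bases cannot be told apart between PAX8 and PAX8-AS1. The annotated exons cover 7400 bases in PAX8 and 17274 bases in PAX8-AS1.

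The remaining genes of iodide handling and hormone synthesis were mostly as low as the 5 synthesis members. Of 23 such genes, 10 were tested, and SLC5A8, DUOXA2, IYD, KCNE2 and LRP2 were at 0 in all libraries. In T3 at 24 h 0 rose and 2 fell, and in T3 at 6 h 0 rose and 1 fell, against vehicle at the same time. The shares called over all tested genes were 13.3% at 24 h and 7.64% at 6 h. CTSD, a lysosomal protease that can cleave thyroglobulin, fell at both, by 1.16 on the log2 scale at 24 h (edgeR adjusted p = 0.00114) and by 0.73 at 6 h (edgeR adjusted p = 0.0125). PDIA4, a protein disulfide isomerase of the endoplasmic reticulum, fell by 0.40 at 24 h (edgeR adjusted p = 0.0315). The median of the 10 was -0.22 at 24 h and -0.11 at 6 h, against -0.01 and -0.02 over all tested genes.

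Between the time points, 2 of these 10 genes rose and 5 fell at 24 h in T3, and 3 rose and 5 fell in vehicle. Over all tested genes, 70.4% were called between the times in T3 and 64.5% in vehicle. KCNQ1, a potassium channel subunit of the thyrocyte, had 0 and 0 counts in T3 at 24 h, 0 and 2 in vehicle at 24 h, 24 and 49 in T3 at 6 h, and 36 and 30 in vehicle at 6 h. CYBA, an NADPH oxidase subunit, fell at 24 h by 2.96 in T3 (edgeR adjusted p = 1.89e-09) on the log2 scale, and in vehicle the log2 fold change was -2.73 (edgeR adjusted p = 1.03e-08).

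Of 21 other lineage transcription factors, 14 were tested, and 0 were called between T3 and vehicle at either time. The shares called over all tested genes were 13.3% at 24 h and 7.64% at 6 h. At 24 h over 6 h, 3 rose and 5 fell in T3, and 3 rose and 5 fell in vehicle, where 70.4% of all tested genes were called in T3 and 64.5% in vehicle. GLIS3, a zinc finger factor whose loss causes congenital hypothyroidism, rose with PAX8, by 2.37 in T3 (edgeR adjusted p = 2.35e-07) and 1.63 in vehicle (edgeR adjusted p = 2.66e-05) on the log2 scale. CITED2, a transcriptional co-regulator, fell by 2.11 in T3 (edgeR adjusted p = 4.12e-09) and by 1.44 in vehicle (edgeR adjusted p = 8.96e-07). FOXA2, SOX17, EYA1 and NKX2-6 were at 0 in all libraries.

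**Figure D4:**
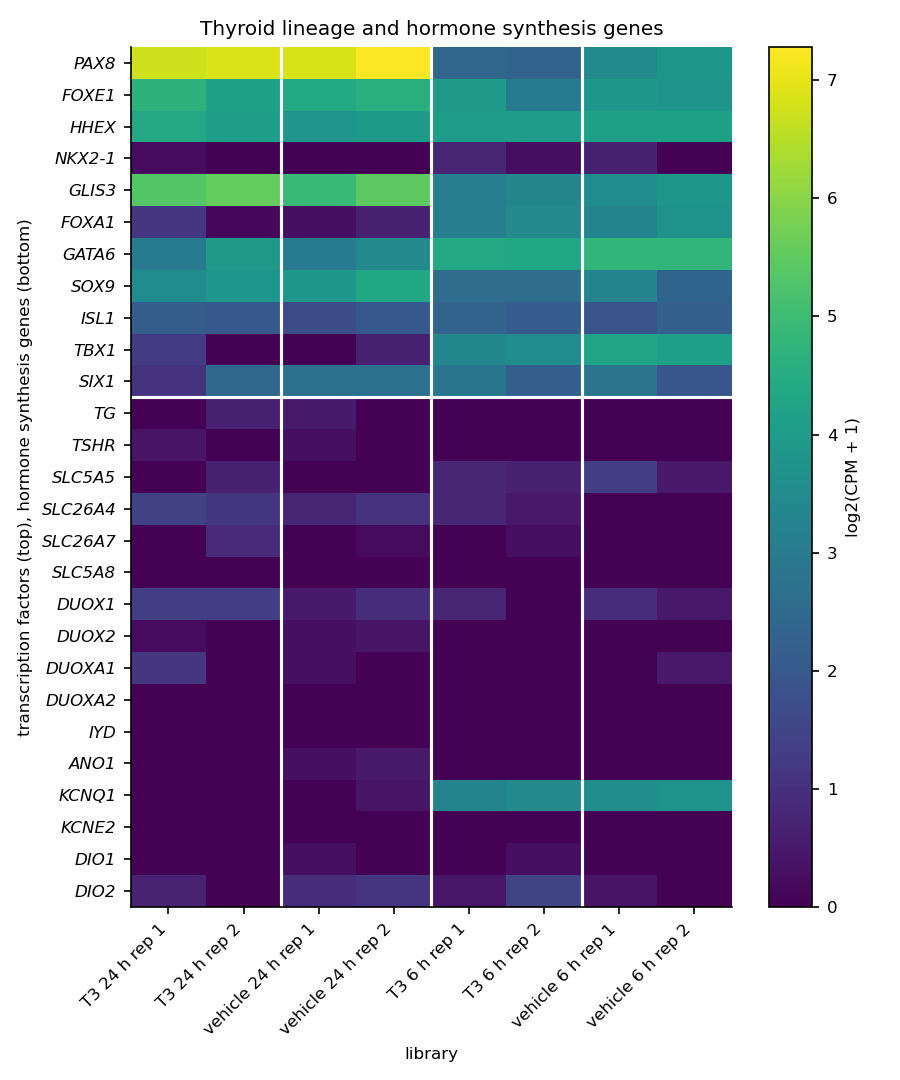
Level of lineage transcription factors (upper rows) and hormone synthesis genes (lower rows) in each of the 8 libraries, as log2(CPM + 1) by colour. PAX8 and GLIS3 are brighter at 24 h, KCNQ1 is visible at 6 h, and TG, TSHR, SLC5A5, DUOX1 and DUOX2 stay dark throughout.

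The 18 genes of TSH receptor signalling downstream of TSHR were all tested, unlike the receptor itself. In T3 against vehicle, 4 rose and 2 fell at 24 h, and 0 rose and 2 fell at 6 h, where 13.3% of all tested genes were called at 24 h and 7.64% at 6 h. ADCY9, an adenylyl cyclase, fell at both times, by 0.57 at 24 h (edgeR adjusted p = 0.0160) and by 0.64 at 6 h (edgeR adjusted p = 0.0159) on the log2 scale. CREB1, which carries the cAMP signal to promoters, rose by 0.48 at 24 h (edgeR adjusted p = 0.0242). At 24 h over 6 h, 6 rose and 7 fell in T3, and 5 rose and 7 fell in vehicle, where 70.4% and 64.5% of all tested genes were called.

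The 16 genes of the thyroid differentiation score, which include 8 of the 9 members, held 5 tested genes. Of these, 0 rose and 1 fell in T3 at 24 h and 0 rose and 2 fell in T3 at 6 h, PAX8 and THRA. Over all tested genes, 13.3% were called at 24 h and 7.64% at 6 h. At 24 h over 6 h, 4 rose and 1 fell in both T3 and vehicle. Of all tested genes, 70.4% were called in T3 (35.1% higher) and 64.5% in vehicle (31.9% higher). THRB, the receptor the series is about, rose at 24 h over 6 h by 2.83 in T3 (edgeR adjusted p = 1.13e-07) and by 2.20 in vehicle (edgeR adjusted p = 2.70e-06) on the log2 scale. THRA, the other T3 receptor gene, fell by 1.39 in T3 (edgeR adjusted p = 4.59e-06) and by 1.34 in vehicle (edgeR adjusted p = 7.01e-06). Of 15 genes that PAX8 binds or that belong to Mullerian and renal lineages, 4 were tested. Between T3 and vehicle 0 of them were called, against 13.3% of all tested genes at 24 h and 7.64% at 6 h. At 24 h over 6 h, 2 rose and 1 fell in T3, and 1 rose and 1 fell in vehicle, where 70.4% and 64.5% of all tested genes were called.

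Summed liver, fibroblast, lung, C cell and parathyroid markers differed between the time points, higher or lower at 24 h. Single markers of a list could go against its sum. For immune markers, the sums at 24 h lay below those of 6 h in T3 and above them in vehicle. No endothelial marker passed the low-count filter. Over all tested genes, 70.4% were called between the times in T3 and 64.5% in vehicle. Summed CPM of 10 liver markers was 18.2 to 23.9 in T3 at 24 h and 22.0 to 27.1 in vehicle at 24 h, against 3467 to 3586 in T3 at 6 h and 2866 to 2882 in vehicle at 6 h, most of it CPS1; of the 3 tested, 1 rose and 2 fell at 24 h over 6 h in both T3 and vehicle. Summed CPM of 10 fibroblast markers was 630.3 to 726.3 in T3 at 24 h and 1149 to 1254 in vehicle at 24 h, against 116.2 to 122.3 in T3 at 6 h and 217.9 to 219.3 in vehicle at 6 h. COL1A1, a fibrillar collagen chain, fell in T3 at both times, by 0.84 at 24 h (edgeR adjusted p = 0.000703) and by 0.90 at 6 h (edgeR adjusted p = 0.000672) on the log2 scale. Of the 4 fibroblast markers tested, 2 rose and 2 fell at 24 h over 6 h in T3, and 1 rose and 2 fell in vehicle. In T3 the log2 fold changes were 2.69 for COL1A1, 0.59 for PDGFRB, -6.28 for DCN and -6.36 for FAP. In vehicle they were 2.64 for COL1A1, -6.95 for DCN and -7.21 for FAP. The higher sum at 24 h was therefore not shared by all 4 markers. In the 14 lung markers, SFTPA1, SCGB1A1, SCGB3A1, SCGB3A2, NAPSA and SFTA3 were at 0 throughout, 3 were tested and all 3 rose at 24 h over 6 h in both T3 and vehicle, and the sum was 59.2 to 77.4 in T3 at 24 h, 66.0 to 84.8 in vehicle at 24 h, 7.24 to 7.44 in T3 at 6 h and 15.7 to 16.8 in vehicle at 6 h. The 9 C cell markers summed to 3.72 to 7.402 CPM in T3 at 24 h, 7.68 to 10.6 in vehicle at 24 h, 1.21 to 2.896 in T3 at 6 h and 2.11 to 3.68 in vehicle at 6 h. The C cell markers CALCA and GRP, the parathyroid marker PTH and the endothelial markers CDH5, TIE1 and EMCN were at 0, and the 10 endothelial markers summed to at most 2.99 CPM in any library. The 6 parathyroid markers summed to 3.01 to 3.72 CPM in T3 at 24 h, 2.94 to 5.98 in vehicle at 24 h, 11.6 to 13.3 in T3 at 6 h and 18.8 to 23.5 in vehicle at 6 h. Immune markers summed to 30.8 to 41.5 CPM in T3 at 24 h, 68.0 to 84.0 in vehicle at 24 h, 55.9 to 60.8 in T3 at 6 h and 57.3 to 59.7 in vehicle at 6 h. Of the 2 immune markers tested, CD74, the MHC class II invariant chain, rose at 24 h over 6 h by 4.05 in T3 (edgeR adjusted p = 2.43e-09) and by 3.67 in vehicle (edgeR adjusted p = 1.96e-09) on the log2 scale. CSF1R, a macrophage growth factor receptor, had log2 fold changes at 24 h over 6 h of -6.78 in T3 (edgeR adjusted p = 1.04e-11) and -7.03 in vehicle (edgeR adjusted p = 4.72e-11). CD74 also fell in T3 against vehicle, by 1.08 at 24 h (edgeR adjusted p = 0.00181) and by 1.46 at 6 h (edgeR adjusted p = 0.0425). The part of these shifts in the PAX8 values was not tested.

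The genes whose centred log2 CPM over the 8 libraries was most like that of PAX8, among 11578 genes of at least 5 CPM, were H1F0, a linker histone, DOCK11, NID1, a basement membrane protein, and KCNMA1, a potassium channel. Their root mean square differences from PAX8 were 0.135, 0.148, 0.178 and 0.181 in log2 units, against a median of 2.12 over all genes compared. For FOXE1 the nearest were SFXN5, TMEM234 and ECM1, at 0.155 to 0.206 against a median of 0.713. For HHEX they were RBMS3, PDK1 and HCG18, at 0.0913 to 0.0993 against a median of 0.548. The 8 libraries fall into the 2 sets of time points that stand apart.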

How the data were processed

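The deposited files hold whole-number read counts per gene, 1 file per library, which the authors made with CASAVA 1.7, STAR 2.7 and HTSeq on hg38, with DESeq2 also named, per the submitters' processing notes. Neither the annotation release nor the strand setting of the counting was stated. 5 summary rows were left out; gene counts were 12.9% to 24.4% of each table, higher in the 24 h libraries. The counts were fitted in R 4.3.3 with edgeR 4.0.16: TMM scaling, filterByExpr by group, 1 coefficient per group over all 8 libraries, robust quasi-likelihood F test with 4 residual degrees of freedom, Benjamini-Hochberg adjustment over 14611 genes and a threshold of 0.05. The procedure was tested on simulated data. DESeq2 1.42.0 was an alternative, as were its size factors, no low-count filter, removal of GC content and length, only the 4 libraries compared, a replicate block and leaving out each library. Positions and exon lengths are from GENCODE on GRCh38, promoter windows from RefSeq. Levels per length are TMM-scaled CPM per kilobase (RPKM). CPM for the nearest-pattern search used a prior count of 2.

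Named genes are the 9 members, KLF9 and HR, up to 4 called genes with at least 1 CPM per list and comparison (smallest p first), genes overlapping or beside a member, and the nearest patterns. Results on some genes that this rule names are not reported here. The members and lists were chosen with earlier results of these data known. Replicates of a group were not identical and differed by more than sampling noise. All libraries were kept, and this spread is no check of their quality. Chi-square per degree of freedom between replicates was highest in vehicle at 24 h, at 27.8. It was 7.24 in T3 at 24 h, 2.69 in T3 at 6 h and 4.10 in vehicle at 6 h.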

Additional observations from a re-analysis of the deposited data

Results flagged for a closer look

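The T3 response differed between 24 h and 6 h, by the test of the difference itself, in 269 of all tested genes (1.84%), and in 0 of the 9 members. The first 4 given here are the 2 T3 targets used to check the labels and the 2 epithelial markers that passed. For KLF9, a T3 target, the difference of log2 fold changes was -7.03 (edgeR adjusted p = 4.08e-06), with 2.79 and 3.35 CPM in T3 and 20.8 and 31.4 CPM in vehicle at 24 h, and 13.4 and 14.1 CPM in T3 and 0.904 and 0.818 CPM in vehicle at 6 h. For HR, a co-repressor and T3 target, it was -4.96 (edgeR adjusted p = 0.000128), with 0.310 and 0.116 CPM in T3 and 4.29 and 3.89 CPM in vehicle at 24 h, and 115.8 and 101.8 CPM in T3 and 68.4 and 58.5 CPM in vehicle at 6 h. CLDN1, a tight junction protein, differed by 1.46 (edgeR adjusted p = 0.000736), being 0.58 at 24 h and -0.88 at 6 h. OCLN, another tight junction protein, differed by 3.03 (edgeR adjusted p = 0.0126), being 0.98 at 24 h and -2.04 at 6 h. CCDC124, which lies beside SLC5A5, also differed, by -1.10 (edgeR adjusted p = 0.0246), being -0.98 at 24 h and 0.12 at 6 h.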

How the results depend on the processing

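Some member calls changed with the processing. For T3 against vehicle at 6 h, the count of members called was 0 with GC content and length removed, and 0 to 1 when libraries were left out; the count over all genes was 459 with GC content and length removed, 2898 with only the 4 libraries of 6 h, and 131 to 1681 when 1 library was left out, against 1117. At 24 h it was 0 to 1 members when 1 library was left out, and over all genes 1184 with DESeq2, 169 with GC content and length removed, 702 with only the 4 libraries of 24 h and 1128 to 2056 without 1 library, against 1948. For 24 h over 6 h in T3, 1 to 2 members were called without 1 library. In vehicle it was 1 member with DESeq2 and with DESeq2 size factors, and 1 to 2 without 1 library. For the difference of responses, 1 member was called with the replicate block over all 8 libraries (PAX8, 1.26, edgeR adjusted p = 0.0497; 0.0736 with the block within each time) and 0 to 1 without 1 library; over all genes it was 674 with no low-count filter and 49 to 750 without 1 library, against 269. Without 1 library the FOXE1 log2 fold change ranged from -0.18 to 0.84 in the difference of responses, from -0.40 to 0.17 at 24 h and from -0.95 to 0.090 at 6 h. The sign turned without the second T3 library of 6 h in the first and the last of these, and without the second T3 library of 24 h at 24 h. With GC content and length removed the sign at 24 h turned for FOXE1 (0.40) and PAX8 (0.079). Same-numbered libraries showed little common deviation, with correlations of -0.0437 to 0.0972, and the main fit did not pair them. With 2 libraries per group, this check cannot show whether the numbers mark shared cultures. The cause of these changes was not tested. Depth limits the 6 low members, for which 3 counts correspond to 0.347 to 1.23 CPM.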

Other observations

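Among 15 epithelial markers, which check the epithelial label, 10 were tested and GRHL2 was at 0 in all libraries. In T3 against vehicle 2 rose and 1 fell at 24 h, and 0 rose and 2 fell at 6 h. The shares called over all tested genes were 13.3% at 24 h and 7.64% at 6 h. At 24 h over 6 h, 3 rose and 7 fell in T3, and 3 rose and 7 fell in vehicle, where 70.4% and 64.5% of all tested genes were called. KRT7, a simple epithelial keratin, fell at 24 h over 6 h by 1.74 in T3 (edgeR adjusted p = 2.61e-09) and by 1.38 in vehicle (edgeR adjusted p = 7.76e-08) on the log2 scale. The 3 that rose were CLDN1, OCLN and TJP1, a further tight junction gene. Their log2 fold changes were 2.65, 5.46 and 1.23 in T3, and 1.18, 2.43 and 1.36 in vehicle.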
